A study of Drosophila melanogaster with 3 samples.

Results

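The genes described here are 38 Drosophila melanogaster genes that build the contractile unit of muscle, the sarcomere, and fasten it to membranes, nuclei and neighbouring cells. They were listed by name from known muscle biology, with earlier results of these data known, and every array probe annotated to their locus tags was taken, 143 probes of the 32162 non-control probes on the array. Transcript abundance was compared between 3 dissected tissues of the wild-type laboratory strain OreR, with 4 replicate arrays each and 12 arrays in all: the apical tip of the testis from adult males that the series describes as 2 to 4 days old, the adult male thorax and the adult female thorax. No group carried a mutation or received a treatment. The study's methods give a wider age range for all dissected flies and state that they were mated, that the muscular sheath around the testis was removed, that the thorax was freed of head, abdomen, legs and wings, and that extracts from many flies were pooled into 4 independent samples per tissue.

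A sarcomere is a lattice of myosin thick filaments that slide along actin thin filaments anchored in the Z-disc. In insect flight muscle, elastic connecting filaments tie the thick filament ends to the Z-disc and keep the lattice in register, calcium released from the sarcoplasmic reticulum starts contraction through troponin and tropomyosin, and integrin and dystrophin complexes pass the force to the extracellular matrix. Flight muscle fills most of the thorax, whereas the dissected end of the testis is where spermatogenesis starts, from stem cells around a somatic hub up to young spermatocytes with their cyst cells, and the muscle of the testis lies in the sheath.

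Each value below is the log2 of the processed probe signal minus the log2 75th percentile of all probes on the same array, so that 0 means a signal equal to that percentile and a difference of 1 means 2-fold. A gene is represented by its probe with the highest mean signal over the 12 arrays. Because probes differ in how brightly they bind, a brighter probe does not mean a more abundant transcript, and levels are compared between tissues for the same probe. Sums over a marker list weigh the brighter probes more. A probe is called well above background where the scanner software said so for most of its spots. The 75th percentile itself was higher on the testis arrays (13.52 to 13.78 on the log2 scale) than on the thorax arrays (10.48 to 11.71), the share of probes well above background ran from 56.4% to 73.7%, and no spot was saturated. The array of testis apical tip replicate 1 stood apart: 22.4% of the tested probes read more than 2 log2 units below the median of the other 3 testis arrays there, and 36.5% read more than 1 unit above it. Results whose call it decides, or that it moves by over 1.5 times, are given with and without it. The thorax arrays were spread over 3 slides, with 2 male and 2 female arrays on a slide without testis samples.

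Most of the 38 genes were far less abundant in the testis apical tip than in thorax. Of the 36 members whose probe passed the filter on dim probes, 34 fell from male thorax to testis apical tip, 1 rose (Lasp) and 1 did not pass the test (Scgalpha), at a limma adjusted p below 0.05 over all 17470 probes tested. Differences between these tissues were common on the array as a whole, where 43.5% of tested probes were called lower and 32.0% higher in the testis apical tip. The size of the change set the genes apart more than the count: the median change of the tested members was -7.71 on the log2 scale, against -0.69 over all tested probes. Against female thorax, which shares the testis arrays with the first comparison, 33 members fell, Lasp rose, and Scgalpha and Scgbeta did not pass the test, beside 43.5% of all tested probes lower and 31.3% higher. The medians there were -7.77 for the members and -0.67 for all tested probes. With up and sals, whose probes were not detected in testis apical tip, set at their detection bounds, the members' medians were -7.59 from male and -7.58 from female thorax.

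The median member had a change from male thorax lower than all but 3.95% of the tested probes, a rank that is left as it is when whole arrays are shifted up or down, and 19 of the 36 members lay among the lowest 5%. The testis values lay below all male thorax values for 33 of the 36 members and above them for Lasp, patterns shown by 41.7% and 29.7% of tested probes, and the same counts against female thorax stood beside 42.3% and 29.3%. Falls deeper than 7 log2 units were found for 20 members and falls between 2 and 7 units for 11. With no scaling between arrays, which moved the median change of all probes to 1.65, 27 members fell and 5 rose from male thorax, the additional risers being Dys, Scgalpha, Scgbeta and parvin, beside 21.8% of all tested probes lower and 52.0% higher (73.8% called in all). With quantile normalization 33 were lower and 1 higher, beside 38.7% and 36.5% of all tested probes. On the slide with 2 testis and 2 male thorax arrays alone, 25 fell and Lasp rose, beside 22.7% of all probes lower and 16.5% higher, with a median of -7.09. Testis replicate 1, the array that stood apart, was 1 of the 2 testis arrays on that slide, and its part in the lost calls was not tested. The falls no longer called there were those of tmod, sls, CAP, Lmpt, Dg, Dys, Scgbeta, Ilk and parvin (adjusted p from 0.055 to 0.47), whose changes stayed negative. On the slide with 2 testis and 2 female thorax arrays, which did not hold testis replicate 1, 34 fell and Lasp rose. Beside them, 49.7% of all probes were lower and 40.1% higher, and the members' median was -7.26. In bulk tissue, fewer cells of a type and less RNA per cell cannot be told apart.

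**Figure D1:**
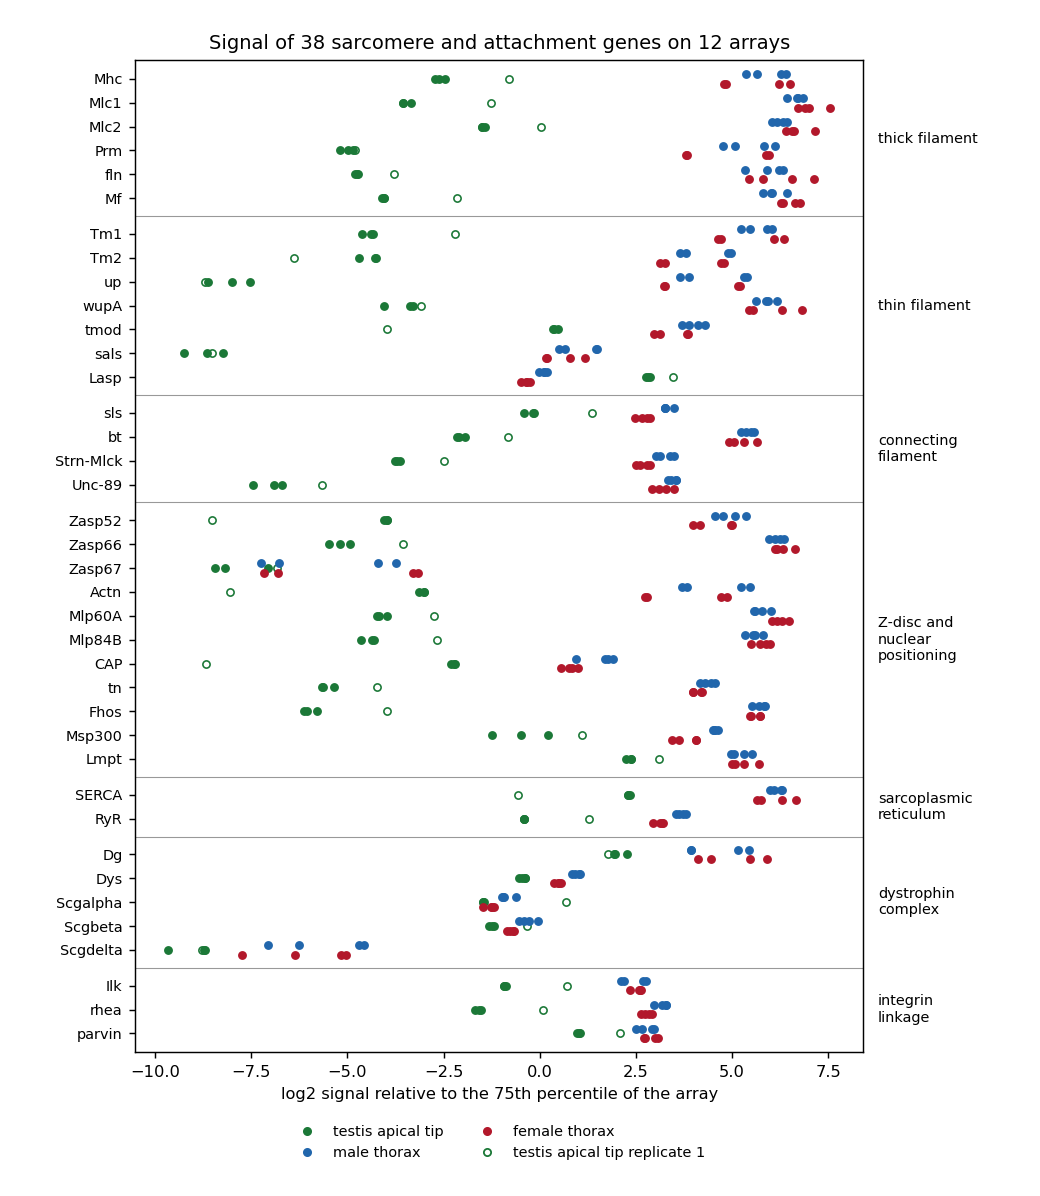
Signal of each of the 38 genes on each of the 12 arrays, as log2 signal relative to the 75th percentile of the array, in 7 role groups. Blue and red points are male and female thorax, green points testis apical tip, with replicate 1 drawn open. The thorax points lie right of the testis points for most genes, Lasp lies the other way, and the open points often stand away from the 3 filled ones.

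Of the 38 members, 36 read well above background on all 8 thorax arrays, the exceptions being Zasp67 and Scgdelta. In the testis apical tip the probe that represents the gene read well above background on all 4 arrays for 29 members, on 1 to 3 arrays for 5 and on none for 4 (up, sals, Zasp67 and Scgdelta). Over all probes of a gene, 32 members had a probe well above background on all 4 testis arrays, 3 on 1 to 3 arrays and 3 on none. So for most genes the signal in testis apical tip was lower than in thorax but still measured. Several markers of other cells were read beside them. All 6 flight muscle markers outside the member list were lower in testis apical tip than in male thorax, as were all 5 fat body markers, all 5 haemocyte markers and 5 of 6 neuronal markers. Of 7 hub and cyst cell markers 3 were higher and 2 lower, 11 of 12 male germline markers were higher, and the summed germline level ran from 5.25 to 5.68 on the testis arrays and from -2.06 to -0.92 on the male thorax arrays. The summed level of the flight muscle markers ran from 3.44 to 3.77 in testis apical tip, where each of the 6 markers was detected on at least 1 array, and from 8.10 to 8.70 in male thorax. Most of the testis sum was the arginine kinase gene Argk1 (3.27 to 3.60), and without it the sum ran from -0.53 to 0.61 in testis apical tip and from 7.73 to 8.41 in male thorax. The testis sheath has no marker on these lists that is not itself a muscle gene, so its part in the testis signal was not tested.

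All 6 genes of the thick filament fell in both comparisons, with a median change of -9.63 from male thorax. Myosin light chain Mlc1, the essential light chain on chromosome arm 3R, read -1.28, -3.55, -3.34 and -3.55 on the 4 testis arrays, 6.72, 6.70, 6.85 and 6.44 in male thorax, and 6.99, 7.55, 6.90 and 6.70 in female thorax. No testis value came near a thorax value, and the change was -9.61 ± 0.46 (SE, limma adjusted p = 7.4e-09) from male and -9.96 ± 0.46 from female thorax. Flightin (fln, arm 3L), a thick filament protein needed for flight muscle stiffness, had the largest fall of the group. It read -3.79, -4.79, -4.72 and -4.75 in testis apical tip, 6.32, 6.21, 5.91 and 5.33 in male thorax and 6.55, 7.12, 5.80 and 5.45 in female thorax, a 1401-fold lower level than in male thorax (-10.45 ± 0.40, adjusted p = 1.5e-09).

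By the probe that represents each gene, the smallest fall among thick filament genes was that of Mlc2, the regulatory light chain. Its values were 0.03, -1.50, -1.42 and -1.51 in testis apical tip, 6.32, 6.17, 6.43 and 6.04 in male thorax and 6.55, 7.16, 6.60 and 6.41 in female thorax. Even this was a 162-fold difference (-7.34 ± 0.35, adjusted p = 6.4e-09), and testis replicate 1 was the highest of the 4 testis values for Mlc1, fln and Mlc2 alike. The 3 Mlc2 probes well above background on the 4 testis and the 4 male thorax arrays changed by -10.60 to -7.34. The muscle myosin heavy chain Mhc changed by -8.08, paramyosin (Prm), the core protein of the thick filament, by -10.41, and myofilin (Mf) by -9.65 from male thorax. Prm differed between slides within thorax: its values were 5.84 to 6.12 on the slide that held both sexes and 3.80 to 5.08 on the other slides, still far above its testis values of -5.18 to -4.80.

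Among 7 thin filament genes, 6 fell and Lasp rose. The troponin I gene wupA on the X chromosome read -3.09, -4.04, -3.30 and -3.38 in testis apical tip, 6.16, 5.93, 5.87 and 5.61 in male thorax and 6.29, 6.82, 5.54 and 5.45 in female thorax, a change of -9.35 ± 0.33 (adjusted p = 9.1e-10) from male thorax. The troponin T gene up (upheld), also on the X, is represented by a probe annotated to transcript RA. The 4 testis values of that probe, -8.71, -8.01, -7.54 and -8.63, were not well above background on any array, against 5.396, 5.30, 3.64 and 3.89 in male thorax and 5.16, 5.21, 3.23 and 3.25 in female thorax. Taking the lowest signal well above background on each testis array as the limit of detection where it exceeded the probe's own, the RA probe was at least 2642-fold lower than in male thorax and at least 2086-fold lower than in female thorax (adjusted p = 5.9e-09 from male thorax). Another up probe, annotated to RD, was well above background on all 4 testis arrays and changed by -6.11 ± 0.57.

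Sarcomere length short (sals), which promotes thin filament elongation, was likewise not well above background on any of the 4 testis arrays and was at least 228-fold lower than in male and 168-fold lower than in female thorax. The tropomyosin genes Tm1 and Tm2 changed by -9.55 and -9.23 from male thorax. Tropomodulin (tmod), which caps the pointed end of the thin filament, fell less, by 4.69 ± 0.85, and here testis replicate 1 was the low value: the testis arrays read -3.97, 0.48, 0.35 and 0.37. Without that array the change was -3.60. From female thorax it was -4.13 with and -3.04 without it, and the call was lost with no scaling (-1.48, adjusted p = 0.13), as was that from male thorax within the slide (-5.53, adjusted p = 0.066). Male thorax values of tmod were 4.30, 4.11, 3.87 and 3.70, above every testis value.

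Lasp, which encodes a LIM and SH3 domain protein that binds actin and the thin filament, was the exception in direction, with 3.46, 2.81, 2.86 and 2.77 in testis apical tip, 0.10, 0.19, 0.11 and -0.03 in male thorax and -0.36, -0.32, -0.48 and -0.25 in female thorax. The testis values lay above all thorax values on every array, a 7.37-fold higher level than in male thorax (2.88 ± 0.20, adjusted p = 1.1e-07) and a 10.03-fold higher level than in female thorax. It was the only member higher in testis apical tip with scaled or quantile-normalized arrays.

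**Figure D2:**
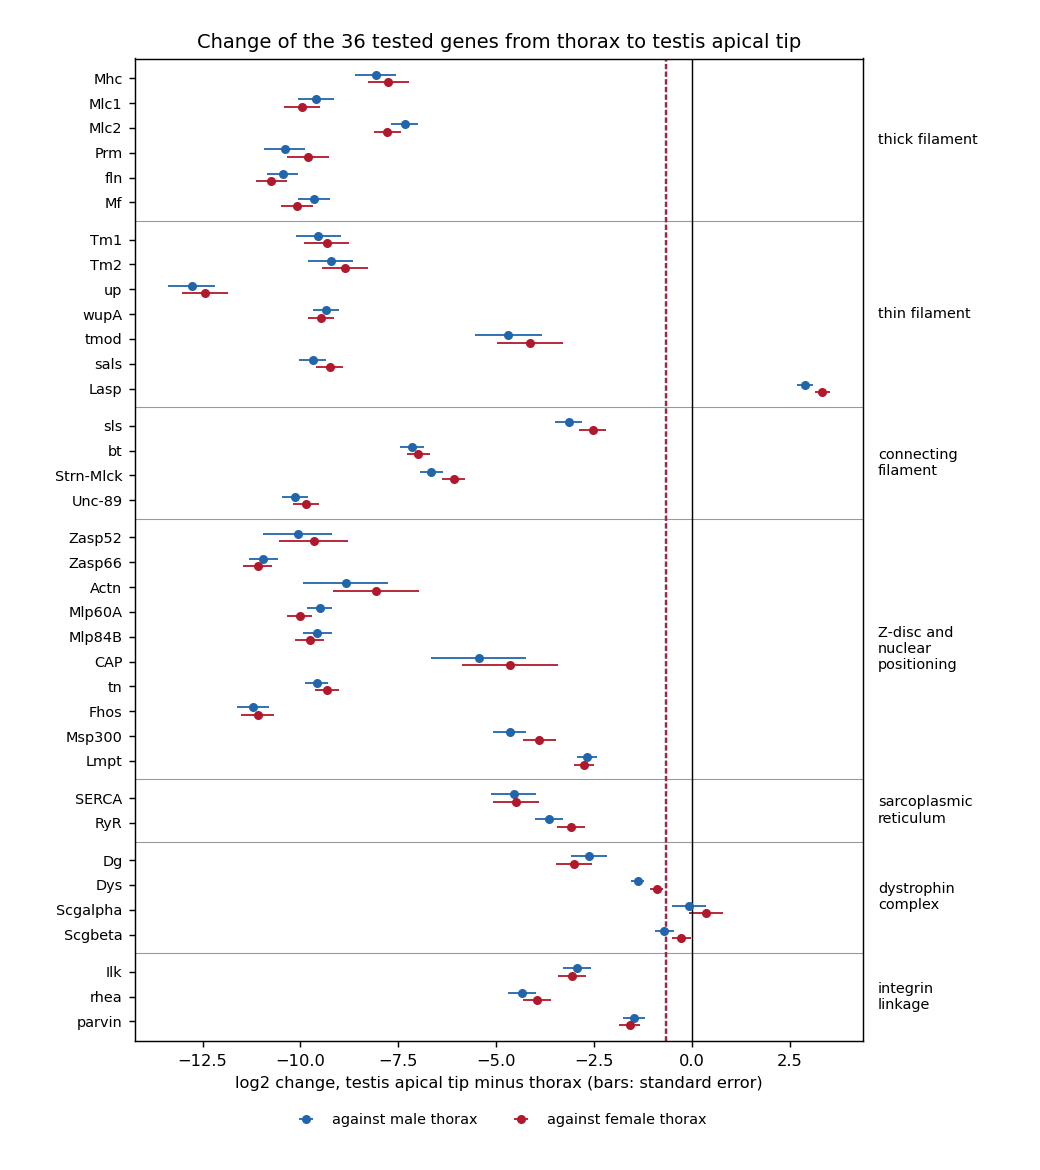
Log2 change of the 36 tested genes from male thorax (blue) and female thorax (red) to testis apical tip, with the standard error of the limma fit (up and sals were not detected in testis apical tip, so their fitted changes are no measured size). Dashed lines mark the medians of all tested probes, -0.69 and -0.67. Thick filament genes lie between -7.34 and -10.45 from male thorax, whereas the dystrophin complex genes lie between -2.64 and -0.07.

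All 4 genes of the connecting filament and giant protein group fell, but to very different extents. Projectin (bt, on chromosome 4) read -0.83, -1.94, -2.09 and -2.15 in testis apical tip, 5.57, 5.35, 5.48 and 5.22 in male thorax and 5.31, 5.64, 4.92 and 5.06 in female thorax, a change of -7.16 ± 0.30 (adjusted p = 3e-09) from male thorax. Unc-89 (Obsc in the current annotation), the obscurin of the M-line, had the largest fall. It read -5.65, -6.71, -7.45 and -6.91 in testis apical tip, well above background on 2 of those arrays, 3.54, 3.42, 3.54 and 3.33 in male thorax and 3.48, 3.28, 2.91 and 3.09 in female thorax (-10.14 ± 0.33, adjusted p = 5.7e-10). Sallimus (sls), the Drosophila titin that spans the I-band, had the smallest, with 1.36, -0.16, -0.18 and -0.40 in testis apical tip, 3.48, 3.25, 3.26 and 3.25 in male thorax and 2.87, 2.78, 2.48 and 2.66 in female thorax. The groups did not overlap, and sls was 8.91-fold lower than in male thorax (-3.16 ± 0.34, adjusted p = 5.5e-06). With no scaling the fall from male thorax was no longer called (-0.81, adjusted p = 0.093) and the change from female thorax was 0.11. Strn-Mlck (Stretchin-Mlck), a large gene of the titin and myosin light chain kinase family, fell by 6.66.

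The Z-disc and nuclear positioning group held 11 members, of which the 10 tested all fell, with a median of -9.54 from male thorax. Zasp66, a PDZ and LIM family protein of the Z-disc, read -3.54, -5.47, -4.94 and -5.19 in testis apical tip, 6.24, 5.96, 6.35 and 6.12 in male thorax and 6.31, 6.64, 6.16 and 6.10 in female thorax. This was a change of -10.95 ± 0.37 (adjusted p = 6.7e-10), or 1982-fold. Fhos, the formin that assembles thin filaments during sarcomere growth, fell most, from 5.86, 5.70, 5.82 and 5.51 in male thorax and 5.47, 5.50, 5.72 and 5.73 in female thorax to -3.98, -5.79, -6.14 and -6.05 in testis apical tip (2377-fold below male thorax, -11.21 ± 0.41, adjusted p = 1.1e-09). Lmpt (Limpet), a LIM domain protein, fell least. Its values of 3.11, 2.36, 2.24 and 2.36 in testis apical tip lay below 5.53, 5.30, 5.04 and 4.97 in male thorax and 5.31, 5.71, 5.08 and 4.99 in female thorax, a 6.46-fold difference (-2.69 ± 0.26, adjusted p = 1.9e-06), which was not called with no scaling (-0.35, adjusted p = 0.36).

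Other genes of this group changed by -9.51 (Mlp60A) and -9.57 (Mlp84B), both muscle LIM proteins, and by -9.59 (tn, thin, an ortholog of the mammalian ubiquitin ligase TRIM32). Msp300, the muscle nesprin that holds nuclei in place, fell by 4.66. Testis replicate 1 weighed most on 3 further members, where it read far below the other 3 testis arrays and was not well above background. For Actn, the alpha-actinin that cross-links thin filaments in the Z-disc, the testis arrays read -8.05, -3.14, -3.01 and -3.00, and the change from male thorax was -8.85 with and -7.60 without replicate 1. For Zasp52 they read -8.51, -4.05, -3.98 and -3.97, with changes of -10.07 and -8.94. For CAP, a vinculin-binding protein of the muscle attachment site, they read -8.69, -2.32, -2.23 and -2.21, with changes of -5.44 and -3.84. All 3 genes remained called lower without that array. From female thorax, the change went from -8.08 to -6.83 for Actn, from -9.66 to -8.53 for Zasp52 and from -4.65 to -3.04 for CAP when it was left out. The CAP call was lost from female thorax with no scaling (-1.997, adjusted p = 0.16) and from male thorax within the slide (-6.83, adjusted p = 0.087). Zasp67 did not pass the filter: its testis values, -8.43 to -6.84, were not well above background on any array, and it was well above background on 2 of 4 arrays in each thorax group.

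Both sarcoplasmic reticulum genes fell in both comparisons. SERCA, the pump that returns calcium to the reticulum, read -0.56, 2.29, 2.33 and 2.31 in testis apical tip, 6.26, 6.09, 6.28 and 5.97 in male thorax and 6.29, 6.66, 5.75 and 5.64 in female thorax. The change from male thorax was -4.56 ± 0.58 (adjusted p = 2.2e-05), and -3.84 without testis replicate 1. From female thorax it was -4.49 with and -3.78 without that array. RyR, the ryanodine receptor through which the calcium leaves, read 1.29, -0.40, -0.41 and -0.42 in testis apical tip, 3.73, 3.62, 3.80 and 3.53 in male thorax and 3.18, 3.19, 2.94 and 3.13 in female thorax, a change of -3.66 ± 0.35 (adjusted p = 2e-06). Both genes are represented by their least changed probe. From male thorax, the 5 SERCA probes changed by -7.33 to -4.56 and the 2 RyR probes by -5.96 to -3.66. With no scaling the RyR change from female thorax was not called (-0.44, adjusted p = 0.34). The sign of the deviation of testis replicate 1 was thus opposite for these 2 genes.

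The dystrophin complex, which links the cytoskeleton to the extracellular matrix in muscle and in other tissues, had small changes at the probes that represent its genes. The 4 tested members had a median change of -1.05 from male thorax and -0.59 from female thorax, against -0.69 and -0.67 over all tested probes. Dystroglycan (Dg), the transmembrane receptor, had the largest fall of the group, with 1.76, 1.95, 1.92 and 2.26 in testis apical tip, 5.43, 5.15, 3.93 and 3.93 in male thorax and 5.46, 5.90, 4.44 and 4.11 in female thorax (-2.64 ± 0.46, adjusted p = 0.00027). It was not called with no scaling (-0.29, adjusted p = 0.62). The 3 Dg probes changed by -4.33 to -0.17 from male thorax, with 2 called lower and 1 not called. Dystrophin (Dys) fell by 1.39 ± 0.16 (adjusted p = 7.4e-06), and rose by 0.95 with no scaling. Its other tested probes fell further, by 3.58 ± 0.18 (RH, well above background on all 4 testis arrays) and by 4.80 ± 1.29 (RA).

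The sarcoglycans are small transmembrane partners of dystroglycan. Scgalpha read 0.67, -1.46, -1.49 and -1.48 in testis apical tip, -0.92, -0.98, -0.95 and -0.63 in male thorax and -1.18, -1.24, -1.47 and -1.27 in female thorax. On 3 testis arrays the value lay below all male values and on replicate 1 above them, and the change from male thorax was -0.07 ± 0.43 (adjusted p = 0.89) with all arrays and -0.61 (adjusted p = 0.00094) without replicate 1. Scgbeta changed by -0.71 ± 0.24 (adjusted p = 0.018) from male thorax and by -0.27 ± 0.24 (adjusted p = 0.32) from female thorax, where the change was -0.50 (adjusted p = 0.0045) without testis replicate 1. The Scgbeta call from male thorax was lost when testis replicate 2, testis replicate 4 or male thorax replicate 4 was left out (adjusted p from 0.053 to 0.055). It was also lost with quantile normalization (adjusted p = 0.091), with only the 8 arrays of the tissues compared (0.053) and within the slide that held both (0.47). Scgdelta did not pass the filter, with testis values of -9.66 to -8.70 that were not well above background on any array.

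Integrin linkage genes, which couple integrins to the actin cytoskeleton at attachment sites, fell in all 3 cases. Talin (rhea) fell most, with 0.09, -1.58, -1.53 and -1.67 in testis apical tip, 3.27, 3.18, 3.27 and 2.97 in male thorax and 2.74, 2.91, 2.63 and 2.84 in female thorax (20.4-fold below male thorax, -4.35 ± 0.35, adjusted p = 4.5e-07). Parvin, a partner of integrin-linked kinase, fell least. It read 2.09, 1.01, 0.98 and 1.03 in testis apical tip, 2.50, 2.65, 2.91 and 2.98 in male thorax and 2.71, 2.73, 3.06 and 2.99 in female thorax, a change of -1.48 ± 0.27 (adjusted p = 0.0004) that became 0.86 with no scaling. Integrin-linked kinase (Ilk) fell by 2.95 ± 0.36, and was not called with no scaling (-0.60, adjusted p = 0.18).

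Several genes carry many probes, annotated to different transcripts, and these did not always move by the same amount. Of 128 tested member probes, 121 were called lower, 2 higher and 5 neither, from male thorax, beside 43.5% of all tested probes lower and 32.0% higher. Among the 27 members with at least 2 tested probes, the fitted change differed between the least and the most changed probe by a median of 4.16 log2 units, a value that takes in probes not detected in testis apical tip. Where only probes well above background on the 4 testis and the 4 male thorax arrays were kept, 16 members still had at least 2, and the median difference was 1.82, with Tm1 (7.003) and Lasp (6.85) at the upper end. All tested probes were called lower in 22 of the 27 members, and no such share is given for other genes of the array. In 12 of the 27, the brightest probe, used as the gene value, was the one with the smallest fall or the highest change.

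**Figure D3:**
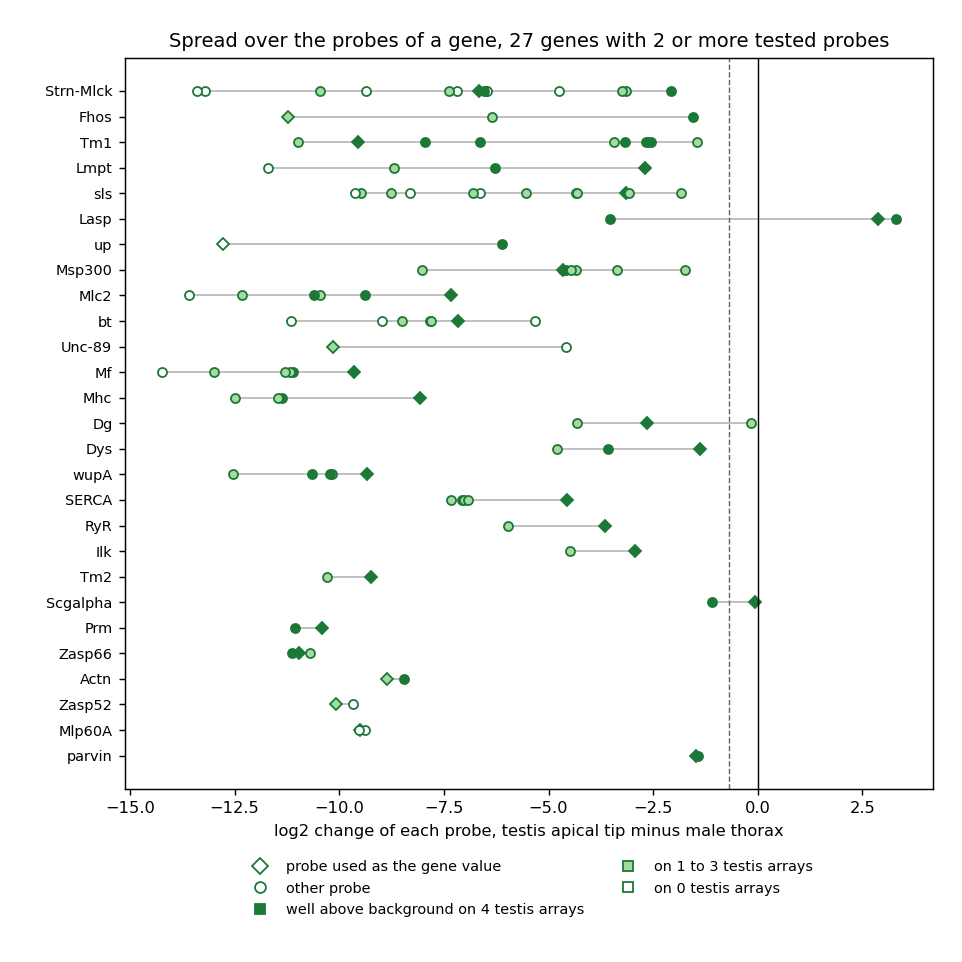
Log2 change from male thorax to testis apical tip of each tested probe, for the 27 genes with 2 or more tested probes, ordered by their spread. Diamonds mark the probe used as the gene value, and the fill gives on how many of the 4 testis arrays the probe was well above background. Lasp is the only gene with probes on both sides of 0, and open points are probes not well above background on any testis array, whose fitted change is no measured size.

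Lasp was the only member with probes called in opposite directions. A probe annotated to transcript RA rose by 3.31 ± 0.17, with 2.58, 2.40, 2.36 and 2.21 in testis apical tip and -0.83, -0.83, -1.09 and -0.95 in male thorax. The probe that represents the gene, annotated to RB, rose by 2.88 as given above. A further probe annotated to RB fell by 3.54 ± 0.43 (adjusted p = 1.4e-05), reading -1.72, -3.47, -3.88 and -3.87 in testis apical tip and 0.16, 0.09, 0.66 and 0.32 in male thorax. The 3 probes were well above background on all 12 arrays, and against female thorax they changed by 3.71, 3.33 and -3.18. Averaged over its probes, Lasp rose by 0.88 from male thorax. Within the slide that held testis and male thorax arrays, no member had probes called in opposite directions.

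For Tm1, which gives rise to muscle and cytoskeletal tropomyosins, 2 of 3 tested probes annotated to RE changed by -9.55 and -10.99, and the RF probe by -7.96. Both probes annotated to RC changed by -2.63 and -2.67, and the 4 RA probes by between -2.55 and -6.65. The third RE probe changed by -1.46, which was not called. On the RF probe, male thorax read 5.51, 5.47, 4.08 and 3.80 and testis apical tip -3.54, -3.17, -3.09 and -3.17. On an RA probe, by contrast, male thorax read 1.08, 1.25, 0.93 and 0.62 and testis apical tip -2.67, -2.005, -2.03 and -2.06, a change of -3.16 ± 0.22. The annotation names 1 transcript per probe, and a probe may also match others, so these values describe probes and not measured isoforms.

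**Figure D4:**
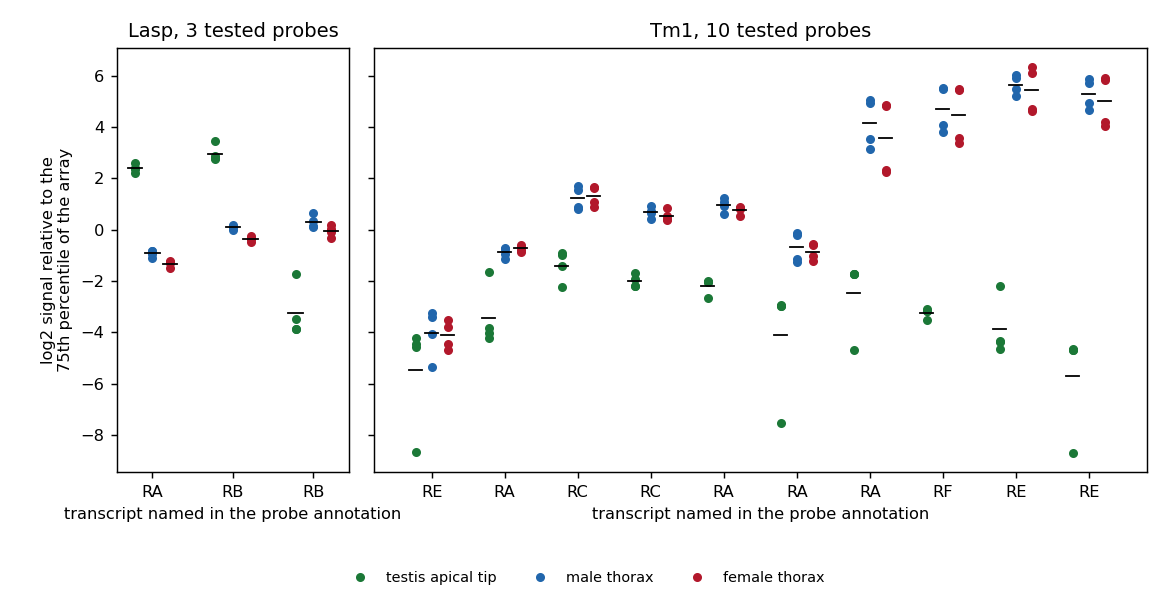
Signal on each of the 12 arrays of the 3 tested Lasp probes and the 10 tested Tm1 probes, as log2 signal relative to the 75th percentile of the array. Points are arrays, black lines are means of 4, and probes are ordered from the highest to the lowest change. The first 2 Lasp probes are higher in testis apical tip and the third is lower, and the distance between the tissues widens from left to right in Tm1.

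The probes of sls fell into separate ranges by annotation: the 6 tested RA probes changed by -1.83 to -5.53 and the 6 tested RC probes by -6.63 to -9.63 from male thorax. Of the RC probes, 3 were not well above background on any testis array, so their fitted changes are limited by the detection floor. In Strn-Mlck the 9 tested RD probes, 5 of them not well above background on any testis array, had fitted changes from -3.14 to -13.39. The 5 annotated to RA transcripts had fitted changes from -2.08 to -6.66. These ends belong to different locus tags, CG15699-RA for -2.08 and CG18255-RA for -6.66. One of the RD probes read -8.60, -9.43, -8.84 and -8.41 in testis apical tip, not well above background on any array, and 4.88, 4.80, 4.56 and 4.03 in male thorax, at least 2666-fold apart. Gaps between probes were also seen in Fhos, Lmpt and up. The Fhos RA probe fell by 11.21, while an RB probe fell by 1.54 ± 0.41 (adjusted p = 0.0054) and was well above background on all 12 arrays. In Lmpt the RG probe fell by 2.69 and a probe under an older locus tag, CG11915-RA, was at least 1143-fold lower than in male thorax. For up, the gap between the RA and RD probes is given above.

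Between male and female thorax no member passed the test, where 0.446% of all tested probes were called (0.143% higher in male and 0.303% higher in female thorax). Unadjusted limma p-values were below 0.05 for 2 of the 36 members, Lasp and Dys, and no share over all tested probes is given beside that count. The median difference, male minus female, was 0.30 for the members and 0.04 for all tested probes. Of the 36 members, 24 were higher in males, a count that was not made over all tested probes. Differences ranged from -0.51 (Mlp60A) to 0.80 (CAP). For most members the male and female arrays overlapped, and for all tested members but Scgalpha and Scgbeta the difference was smaller in size than the change to the testis apical tip from either thorax.

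Male and female arrays did not overlap for 10 members. For 9 of them all male values were higher (sls, Strn-Mlck, Lasp, Msp300, RyR, Dys, Scgalpha, Scgbeta and rhea), a pattern shown by 8.27% of all tested probes, and for Mlp60A all female values were higher, as for 6.81% of tested probes. Dys read 1.03, 1.01, 0.84 and 0.92 in male and 0.36, 0.49, 0.47 and 0.55 in female thorax, a difference of 0.48 ± 0.16 (adjusted p = 0.37). The sls difference was 0.61 ± 0.34 (adjusted p = 0.78), that of RyR 0.56 ± 0.35 (adjusted p = 0.84), and that of Mlp60A -0.51 ± 0.32 (adjusted p = 0.83). Their standard errors come from a spread shared with the testis arrays. Without testis replicate 1, 6 members were called higher in males (sls 0.61, Strn-Mlck 0.57, Lasp 0.45, CAP 0.80, RyR 0.56 and Dys 0.48), where 7.1% of all tested probes were called (3.59% higher in male and 3.51% higher in female thorax).

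The sign was the same on the slide that held both sexes and on the other slides for 28 of the 36 members. How many of all tested probes kept their sign, or were higher in males on these slides, was not counted. On the shared slide the median member difference was 0.13 (all probes -0.04) and 20 members were higher in males. On the other 2 slides, where each sex had a slide of its own, it was 0.42 (all probes 0.06) and 26 were. There, slide and sex cannot be told apart. The thorax level itself differed between slides for some members: 7 of 36 (Actn, up, Prm, Tm2, Dg, Mhc and Tm1) read more than 1 log2 unit higher on the slide with both sexes than on the others, beside 12.1% of all tested probes. The largest of these gaps, 1.80 for Actn, was small beside its change of -8.85 to the testis apical tip.

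**Figure D5:**
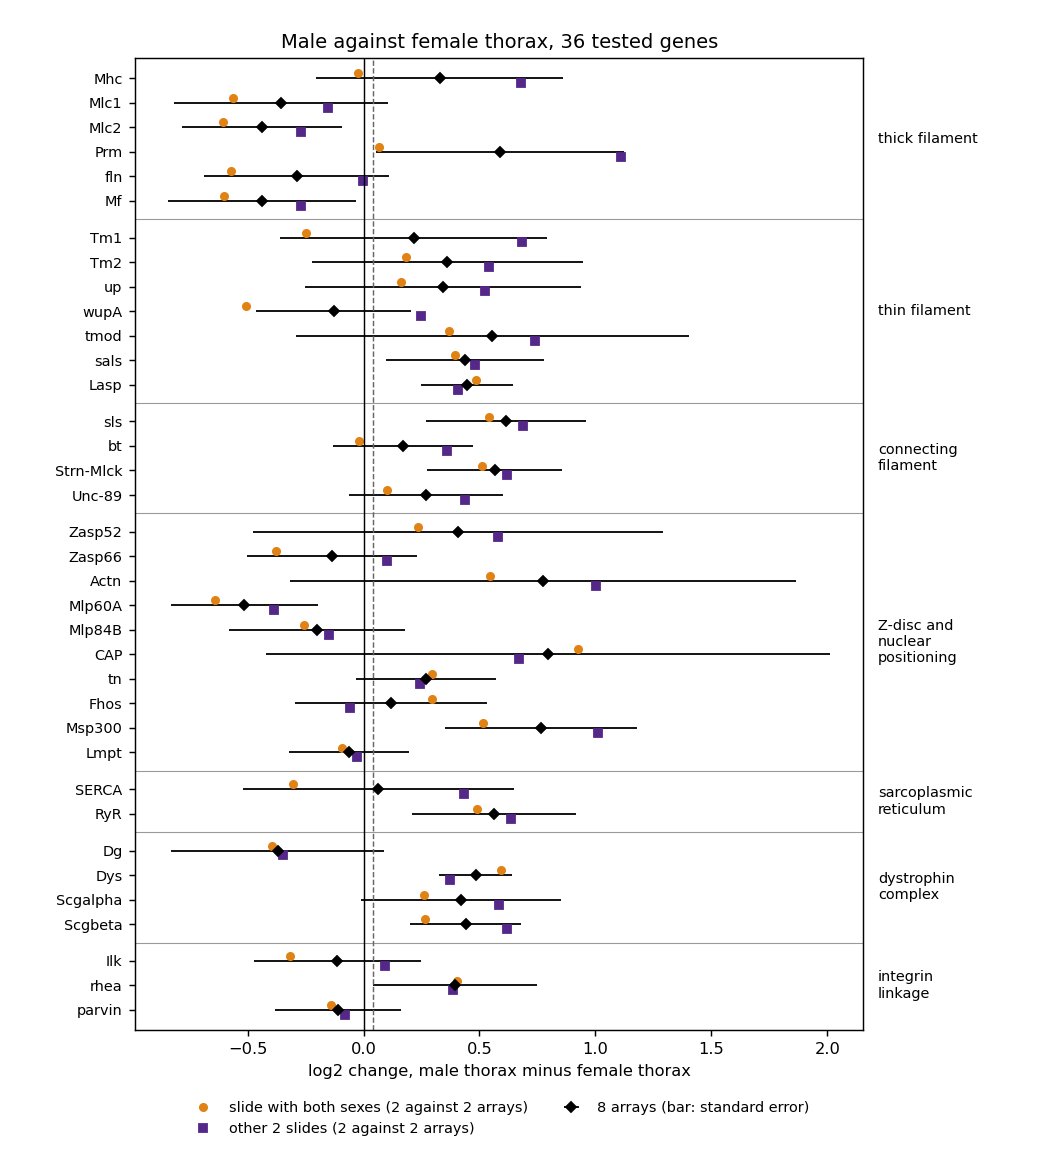
Male minus female thorax on the log2 scale for the 36 tested genes, over all 8 arrays (diamonds, with standard error), on the slide with both sexes (circles) and on the other 2 slides (squares). The dashed line marks the median of all tested probes, 0.04. Differences run from -0.51 to 0.80, with most points right of 0.

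Other muscle genes outside the member list were read in the same fits. Of 47 such genes measured in 6 lists, 37 were lower in testis apical tip than in male thorax, 5 were higher and 5 were not called. Beside them, 43.5% of all tested probes were lower and 32.0% higher. Against female thorax 36 were lower and 5 higher, beside 43.5% and 31.3%. The shares from male thorax stand beside the counts of each list below as well. The list as a whole is chosen for muscle and cell attachment and holds non-muscle relatives for comparison. With no scaling 22 were lower and 13 higher, beside 21.8% and 52.0% of all tested probes, and within the slide that held testis and male thorax 21 were lower and 0 higher, beside 22.7% and 16.5%.

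All 9 muscle actin and troponin C genes fell, with a median of -6.97. Their changes from male thorax were -12.09 for Act88F, the flight muscle actin, -9.63 for Act79B, -6.97 for Act57B and -1.46 for Act87E. Act87E was the exception in size, and with no scaling its change was 0.88, not called (adjusted p = 0.058). Within the slide its fall was not called either (-1.02, adjusted p = 0.24). Among troponin C genes, the calcium sensors of the thin filament, the changes were -10.03 for TpnC41C, -9.95 for TpnC4, -5.54 for TpnC25D, -4.88 for TpnC73F and -3.06 for TpnC47D. Without testis replicate 1 those of TpnC4 and TpnC47D were -10.62 and -3.75. The TpnC47D call was lost with no scaling (-0.72, adjusted p = 0.32) and within the slide (-2.30, adjusted p = 0.25). Its groups overlapped, with -0.56 on testis replicate 1 and -0.63 on male thorax replicate 4. Act88F was well above background on 2 of the 4 testis arrays and the other 8 genes on all 4.

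Of 6 excitation-contraction genes measured, 5 fell and Calx, the sodium-calcium exchanger, was not called (-0.34, adjusted p = 0.53). The largest change was that of jp (junctophilin, which joins reticulum and plasma membrane), at least 1805-fold lower than in male thorax and not well above background on any testis array, followed by the calcium channel genes Ca-alpha1D (-7.80) and Ca-beta (-5.88). In the integrin adhesion list 11 of 13 fell and 2 rose, wech by 1.84 (adjusted p = 0.008) and Fit2, a kindlin, by 1.096 (adjusted p = 0.021). The call of wech was lost with the mean of its probes (0.31) and that of Fit2 without male thorax replicate 4 (0.97, adjusted p = 0.058). The integrin alpha subunit genes if and mew changed by -8.20 and -5.58 (-7.53 and -4.87 without testis replicate 1) and by, a tensin, by -6.50. Of 5 dystrophin associates 4 fell, led by the syntrophin Syn1 (at least 50.7-fold lower), dystrobrevin Dyb (-5.59) and Syn2 (-3.99, or -4.61 without testis replicate 1), while rt, a protein mannosyltransferase that acts on dystroglycan, changed by -0.01 (adjusted p = 0.98).

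The list of non-muscle counterparts moved less than the members by its median, though not in every gene. Of 11 genes, 7 fell, 2 rose and 2 were not called, with a median of -1.56. The risers were jar, myosin VI (1.72, but -0.92 with the mean of its probes), and zip, the non-muscle myosin heavy chain (0.76, adjusted p = 0.029, and 0.083 without male thorax replicate 1 or 0.063 without replicate 2). The zip call was also lost with quantile normalization (adjusted p = 0.055), only 8 arrays (0.059), slide as a block (0.051) and within the slide (0.37). Those not called were Act42A and the light chain gene Mlc-c (-0.16, adjusted p = 0.58), which was called lower without testis replicate 1 (-0.40, adjusted p = 0.014). The filamin gene cher had the largest fall of the list (-6.00). Profilin (chic) changed by -1.95, and by 0.39 with no scaling. Cytoplasmic actin Act42A read -4.09, 3.03, 3.06 and 2.96 on the testis arrays, so that its change of -3.47 (adjusted p = 0.055) rested on replicate 1 and was -1.70 without it. It was called when testis replicate 2, 3 or 4 was left out. Of the 3 assembly genes, the myosin chaperone unc-45 was called higher by 1.07 (adjusted p = 0.039). That call was ended by 10 alternatives, among them leaving out testis replicate 1 (0.83, adjusted p = 0.085). Mef2, the muscle transcription factor, fell by 4.70, and Hsp83 changed by -0.62 and was not called.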

How the data were processed

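RNA of 12 samples (4 each of testis apical tip, male thorax and female thorax) was hybridised to one-colour Agilent Drosophila arrays. The authors deposited the scanner intensity of every spot (processed signal, background-subtracted by Agilent Feature Extraction, version 9.1 in the submitters' processing notes and 10.5.1.1 in the file header) and a table of log2 values per tissue, in which the authors had averaged the 4 arrays and which has no replicate spread. Here the unflagged spots of each probe were averaged, log2 was taken and the 75th percentile of the array subtracted. The study's methods state no scaling between arrays, which was run as an alternative. Control spots were left out, and 112 to 389 outlier spots per array were set aside. The number of arrays, not counting depth, limits the precision.

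Probes carry transcripts of the array's annotation (BDGP 5.4). Of 32162 probes, 18121 matched a current RefSeq locus tag, 1235 an older one and 115 an accession. The 17470 matched probes with a tissue mean of log2 7 or more were fitted over all 12 arrays with limma 3.58.1 (R 4.3.3, empirical Bayes), with Benjamini-Hochberg adjustment over all of them and a threshold of 0.05. A gene is its probe with the highest mean signal. A probe is well above background where most of its spots are. Values from Python 3.11.15, numpy 2.4.6 and pandas 2.3.3 feed the summaries, and the fit was tested on simulated data. Where a probe was not well above background on any array of a group, its fold is a bound, taken against the higher of the lowest signal well above background and the probe's own signal on each array.

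Replicates are pools from separate extractions, per the methods, so p-values measure the spread between pools and arrays. Array numbers follow slide and position. Members and gene lists were chosen with earlier results of these data known. Values of every array are given for the brightest, the most and the least changed gene of each role and for genes with probes called in opposite directions. Of the other lists, all muscle actin and troponin C genes and the 3 most changed genes of each list are named, and further genes were named after their values were seen, among them those that rose or were not called. Marker lists (flight muscle, male germline, hub and cyst cells, fat body, neurons, haemocytes) were summed per array. The alternatives were no scaling, quantile normalization, normexp background correction, other filters, all non-control probes, the mean of a gene's probes, slide as a block or within a slide, array weights, only 8 arrays, each array left out, and the authors' table.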

Additional observations from a re-analysis of the deposited data

Results flagged for a closer look

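In 28 of 114 groups of 4 arrays (a member in a tissue), the highest or lowest value stood apart from the other 3 by the Dixon ratio at its 95% level, which chance alone gives in about 1 of 20 groups. In 24 of the 28 the value was that of testis apical tip replicate 1, above the others in 19 and below in 5. The groups share arrays and are not independent, and no Dixon count over all tested probes is given. Replicate 1 stood apart over the whole array too: 22.4% of tested probes read more than 2 units below the median of the other testis arrays and 36.5% more than 1 above. The reason was not tested.

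Below the other testis arrays on that array were tmod (-3.97), Zasp52 (-8.51), Actn (-8.05), CAP (-8.69) and SERCA (-0.56). Zasp52, Actn and CAP there were not well above background. Above the others were, among thick and thin filament genes, Mhc (-0.81), Mlc1 (-1.28), Mlc2 (0.029), fln (-3.79), Mf (-2.15), Tm1 (-2.19) and Lasp (3.46). Giant proteins above the others were sls (1.36), bt (-0.83) and Strn-Mlck (-2.48), and among Z-disc genes Mlp84B (-2.67), Fhos (-3.98) and Lmpt (3.11) were. So were RyR (1.29), the sarcoglycans Scgalpha (0.67) and Scgbeta (-0.35), and the attachment genes Ilk (0.70), rhea (0.090) and parvin (2.09).

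The remaining 4 values lay elsewhere. Male thorax replicate 1 was above its group for sls (3.48) and male thorax replicate 4 for Scgalpha (-0.63). Scgdelta on testis replicate 2 (-9.66), below the others, was not well above background, and Ilk on female thorax replicate 1 (2.35) lay below its group.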

How the results depend on the processing

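The count of members called from testis apical tip against male thorax (35) and female thorax (34) stayed within 1.5 times under every alternative that gives calls, with 26 and 35 called within the slide that holds both tissues and 35 and 34 with slide as a block. The median change from male thorax was -5.37 with no scaling, -6.85 with quantile normalization, -7.25 with no filter and also with the mean of a gene's probes, -6.66 with probes well above background on all 12 arrays, -7.19 with slide as a block, -7.09 within the slide and -5.00 in the authors' table. From female thorax it was -5.11, -6.54 (quantile), -7.26 (normexp), -6.09 (all 12 arrays), -7.05 (mean of probes), -7.18 (block), -7.26 (within the slide) and -5.10 (authors' table). No scaling and the authors' table leave the shift of all probes in place (1.65 and 1.72 from male thorax, 1.99 and 1.92 from female thorax). Between the sexes, 10 members were called with array weights, 7 higher in males, where 22.2% of all probes were called. Members with probes called in opposite directions numbered 2 with no scaling (Lasp and Dys) and 0 within the slide of testis and male thorax. Within that slide 21 other muscle genes were called, where only 4 arrays were fitted, testis replicate 1 among them. The cause of the other shifts was not tested.

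With single arrays left out, 34 to 36 and 34 to 35 members were called against male and female thorax, 0 to 6 between the sexes, with medians of -7.84 to -7.55, -7.94 to -7.53 and 0.14 to 0.37, 1 member with opposite probes in each fit and 40 to 43 other muscle genes called.

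Directions reversed with no scaling for sls (0.11) and parvin (1.06) from female thorax and parvin (0.86), Scgbeta (1.63), Act87E (0.88) and chic (0.39) from male thorax, with the same values in the authors' table. With no scaling alone they reversed for Dys (0.95 and 1.74 from male and female thorax), Scgalpha (2.27 from male), Scgbeta (2.38 from female), Calx (2.00), Mlc-c (2.19), Hsp83 (1.72, and 1.27 with quantile normalization) and rt (2.33, and 1.20 with quantile normalization). Scgalpha from female thorax was -0.26 with array weights, and jar -0.92 with the mean of its probes. Values that were not called on either side changed sign 17 times in 4 genes from male thorax, 4 times in 2 genes from female thorax and 38 times in 16 genes between the sexes. The authors' table and the filter on all 12 arrays hold no value for some genes. No paired analysis was possible because array numbers follow slide and position only, and the block tried was the slide.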
